A study of Mus musculus with 8 samples.

Results

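The second interval of a granulocyte colony-stimulating factor (G-CSF) time course, from 2 h to 6 h, was examined in 32Dcl3, a line of mouse myeloid progenitors. The cells carried an empty vector (mock) or the vector with ASXL1-MT, a mutant form of the chromatin regulator ASXL1. Affymetrix mouse arrays, 8 in all, covered both cultures in interleukin-3 (IL-3) and at 2 h, 6 h and 24 h of G-CSF. The comparison took the 4 arrays at 2 h and 6 h and subtracted 2 h from 6 h within each culture. With 1 array per culture and time no condition was replicated, and the 2 cultures stood in for replicates. The p-values rest on how far the 2 time courses disagree over all 8 arrays. That mixes differences between the cultures with technical spread between arrays, and may not measure the spread between independent cultures. It is not stated in the labels from which species the ASXL1 sequence came, whether IL-3 was still present during G-CSF, or whether each time point had its own culture.

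G-CSF drives myeloid progenitors to become neutrophils. Its receptor signals through the kinase JAK2 and the transcription factor STAT3, while the IL-3 receptor acts mainly through STAT5 and the RAS-ERK pathway. Maturation replaces a growth programme, in which the transcription factor MYC sustains ribosome production, with one run by C/EBP factors and PU.1 that makes granule proteins and the receptors of phagocytes. Genes that respond directly to a cytokine often move within the first hours, and genes that need a newly made regulator follow.

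All values below are deposited expression values, taken as log2, relative to the median of the same probe set over the 8 arrays. A value therefore compares arrays for 1 gene and not genes with each other. Values are given for the mock array first and the ASXL1-MT array second. Differences are 6 h minus 2 h as the mean of the 2 cultures ± the standard error of a limma fit to all 8 arrays. A gene was called at a Benjamini-Hochberg adjusted p under 0.05. Of 18193 genes, 13013 were bright enough to test by an estimated signal level, and the 7760 above a stricter limit are called bright. The number of arrays limits the precision.

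Between 2 h and 6 h most transcripts of ribosome assembly and sterol synthesis and many of amino acid supply became less abundant in both cultures, and some transcripts of cytokine receptors, myeloid transcription factors and granule proteins became more abundant. Of the genes tested, 1210 rose (9.3%) and 784 fell (6.02%). The counts given below for groups of genes are to be read beside these shares. The change was at least 2-fold for 391 of the risen and 272 of the fallen genes. In the tested set, whether called or not, 471 genes (3.62%) were at least 1 log2 unit higher at 6 h in each culture and 309 (2.37%) at least 1 lower. Among bright genes, 219 were at least 1 higher in each culture after this interval and 192 at least 1 lower. The same counts were 14 and 21 over the first 2 h from IL-3, and 165 and 50 from 6 h to 24 h. These intervals share the 2 h and 6 h arrays and differ in length. In RNA from whole cultures, a change within cells and a change in the mix of cells cannot be told apart.

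The calls need all 8 arrays. Without any one of them no gene passed (3107 to 4034 genes at an unadjusted p under 0.05, against 4322 with all), and the 4 arrays of the interval alone also gave 0 calls (2929 at an unadjusted p under 0.05). With the dim genes left in, the adjustment over 18193 genes gave 0 calls in limma, with 4127 at an unadjusted p under 0.05 and a smallest adjusted p of 0.0549. Of the calls 60.7% were upward. That share was 52.5% with each array centred on its median and 49.4% after a further quantile normalization, because the median difference over all tested genes was 0.10, 0.044 and 0.023 on these scales. The direction of a difference smaller than about that shift is therefore not settled. Of 210 called genes named here, 62 did not pass as the mean of their probe sets with the direction kept, and 4 changed direction.

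**Figure D1:**
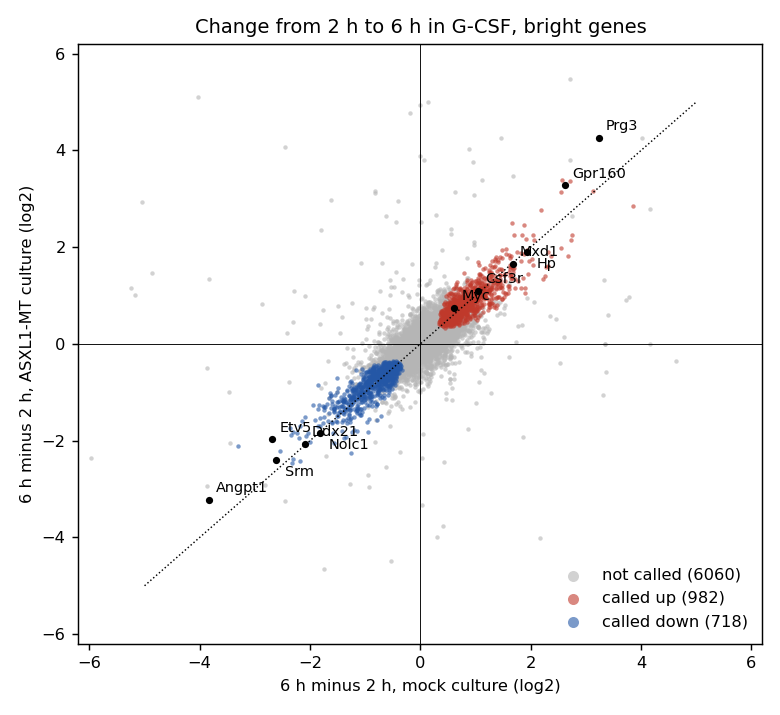
Each point is 1 of 7760 bright genes, with the change from 2 h to 6 h in the mock culture (x axis, log2) against the change in the ASXL1-MT culture (y axis, log2). Red and blue points were called up (982) and down (718), and the dotted line marks equal change. The named genes were all called and have the same sign in both cultures. Some lie off the line, such as Prg3 at 3.23 (mock) and 4.27 (ASXL1-MT).

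The 2 cultures moved alike among bright genes. Across these 7760 genes the change in the mock culture had a Pearson correlation of 0.70 with that in the ASXL1-MT culture, and over all tested genes the correlation was 0.23. These are descriptions across genes, which are not independent replicates, and each array enters only 1 side. Dim genes thus scattered more widely. All 1994 called genes had the same sign in both cultures, which the test nearly forces, compared with 71.9% of all tested genes.

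The largest rises among bright called genes that had not moved by 2 h included receptors and secreted defence proteins. This selection was made after the values had been seen, because the largest differences overall fell on dim genes. Bright was set by the second-highest array, so a risen gene could qualify through its 6 h and 24 h arrays alone. A fallen gene could qualify through its IL-3 and 2 h arrays. The estimated levels of Gpr160 (8.23), Il15 (8.25), Pirb (7.96) and Lbp (7.89) were below the limit of 8.31. Those of P2rx4, Hp, Naip5 and Gstm1 were above it. Not moved means within 0.5 log2 units of the IL-3 value in each culture at 2 h. Gpr160, an orphan G protein-coupled receptor gene, read -1.36 and -2.30 at 2 h and 1.25 and 0.99 at 6 h. The 6 h arrays were far above the 2 h arrays in both cultures, a difference of 2.95 ± 0.25 (adjusted p = 0.0165), or 7.74-fold. P2rx4, an ATP-gated ion channel gene, rose by 2.15 ± 0.21 and read -0.81 and -0.83 at 2 h and 1.23 and 1.42 at 6 h, although the mean of its 4 probe sets did not pass (adjusted p = 0.21). Hp, which encodes the haemoglobin-binding protein haptoglobin, rose by 1.92 ± 0.11, from -0.80 and -1.11 at 2 h to 1.14 and 0.80 at 6 h. It gained a further 2.71 ± 0.11 by 24 h. Pirb, an inhibitory immunoglobulin-like receptor of myeloid cells, rose by 1.98 ± 0.17, and Lbp, the lipopolysaccharide-binding protein gene, by 1.76 ± 0.14. Lbp went on by 3.04 ± 0.14 between 6 h and 24 h. Other genes in this set were Il15, the cytokine that maintains natural killer and memory T cells, at 1.88 ± 0.22, and Naip5, a sensor of bacterial flagellin, at 1.72 ± 0.14. The glutathione transferase gene Gstm1 rose by 2.04 ± 0.18. Gpr160 and Pirb were higher again at 24 h, at 1.95 and 1.78 and 2.52 and 2.02, while Il15 read 0.64 and 0.88 and Naip5 0.71 and 0.96 at 24 h, close to their 6 h values of 1.02 and 0.72 and 0.79 and 0.84. As the mean of the probe sets of each gene, Lbp did not pass.

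The largest falls among bright genes that had not moved by 2 h were led by Angpt1, which encodes the TIE2 ligand angiopoietin-1. Angpt1 read 1.49 and 1.73 at 2 h and -2.35 and -1.49 at 6 h, so that in each culture the 6 h array was more than 3 log2 units below the 2 h array, a mean difference of -3.53 ± 0.22 or 11.5-fold. It stayed low at 24 h, at -2.24 and -1.70. Srm, which makes the polyamine spermidine, read 0.89 and 0.84 at 2 h and -1.74 and -1.55 at 6 h and fell by 2.51 ± 0.10. The 4 values before 6 h lay between 0.84 and 1.09, and both 24 h values were -0.84, so part of the fall was regained. Hal, a histidine-degrading enzyme gene, fell by 2.40 ± 0.20, and Ccn3, a matricellular protein gene, fell by 2.38 ± 0.19. Etv5, an ETS transcription factor gene induced by ERK, fell by 2.33 ± 0.23 and read 0.95 and 1.02 at 2 h and -1.73 and -0.95 at 6 h. Ifrd1, which encodes a transcriptional coregulator, fell by 2.30 ± 0.10, and Taf4b, a TFIID subunit gene, fell by 2.06 ± 0.13. Slc7a1, the main carrier of arginine and other cationic amino acids, fell by 2.04 ± 0.13 and rose again by 1.33 ± 0.13 between 6 h and 24 h. Car12, a carbonic anhydrase gene, fell by 2.05 ± 0.18.

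The largest called differences overall were on dim probe sets. Of the 15 largest rises with at least 1 log2 unit in each culture, 2 were bright and 12 had dropped by more than 0.5 in both cultures at 2 h, so that their change was a return from low values on the 2 h arrays. The spermatid protein gene Tnp1, at 4.23 ± 0.22, is an example: it read -0.58 and -0.49 in IL-3, -3.89 and -3.0 at 2 h and 0.65 and 0.91 at 6 h. Maf, a transcription factor gene at 4.36 ± 0.54, had the opposite sign as the mean of its 6 probe sets (-0.25). The other rises were 8430432A02Rik, 2810433D01Rik, Scn1a, Pnliprp1, Igkv6-14, Tns2, Prg3, Gulo, BB557941, Pdgfc, Boll, Sel1l2 and Nedd4l, between 3.35 and 4.89. Of the 15 largest falls only Angpt1 was bright. The others were Adarb1, Serpinb8, Gm20362, Prl3a1, Dpysl4, Apoe, Yes1, Slc25a2, Enpp3, Uchl1, Ttc29, A930004D18Rik, Gtsf1l and Cgref1, between -4.47 and -2.76. Adarb1, an RNA-editing deaminase gene, read 1.18 and -0.21 at 2 h and -3.33 and -4.65 at 6 h. A930004D18Rik had a difference near 0 as the mean of its 3 probe sets. Of these 30 genes 16 had more than 1 probe set, and 12 of them did not pass as the mean of their probe sets.

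A number of cytokine receptor genes rose at this interval, among them that for the ligand in the medium. Of 24 tested myeloid cytokine receptor genes 8 rose and 2 fell, against 9.3% and 6.02% of all genes, and 6 rose and none fell with probe sets averaged. The others did not pass, and the median difference was 0.44 against 0.10 over all tested genes. Csf3r, the G-CSF receptor, read -0.42 and -0.77 at 2 h and 0.61 and 0.34 at 6 h and rose by 1.07 ± 0.10 (adjusted p = 0.0174), after -0.052 ± 0.10 over the first 2 h. Both 6 h arrays were above both 2 h arrays, and by 24 h the values were 1.68 and 1.55. The beta subunits of the IL-3 receptor rose as well: Csf2rb, the common beta chain, by 1.26 ± 0.13, and Csf2rb2, its IL-3-specific relative, by 1.31 ± 0.11. These 2 genes are near-identical copies, and cross-hybridisation between them was not tested. The alpha chain Il3ra read -0.034 and -0.78 at 2 h and 0.051 and 0.034 at 6 h, with a difference of 0.45 ± 0.22 that did not pass (adjusted p = 0.253). Il5ra, the IL-5 receptor alpha chain, read -0.81 and -0.65 at 2 h and 1.70 and 1.55 at 6 h and rose by 2.35 ± 0.18, which was 5.1-fold. Both 6 h arrays stood above all 6 others for this gene, and between 6 h and 24 h it changed by -1.29 ± 0.18. Tnfrsf1a, the TNF receptor, rose by 1.26 ± 0.10, Tgfbr2, a TGF-beta receptor, by 1.09 ± 0.082, Epor, the erythropoietin receptor, by 1.07 ± 0.14 and Ifngr1 by 0.61 ± 0.11, the last of which did not pass after rescaling. The IL-4 receptor chain Il4ra fell by 0.89 ± 0.095 and the IL-18 receptor subunit Il18rap fell by 0.61 ± 0.10. Tgfbr2, Ifngr1, Il4ra and Il18rap did not pass when the probe sets of a gene were averaged.

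Downstream of the G-CSF receptor, 9 of 24 STAT3 and G-CSF response genes rose (37.5%) and 2 fell (8.33%), with a median of 0.48. Of all genes 9.3% rose and 6.02% fell. Socs3, the feedback inhibitor that binds the G-CSF receptor, read -0.45 and -0.78 at 2 h and 0.94 and 0.45 at 6 h and rose by 1.31 ± 0.13. It had moved by 0.22 ± 0.13 over the first 2 h and rose again by 1.63 ± 0.13 to 24 h. Bcl3, an atypical IkB protein gene, rose by 1.86 ± 0.11 from -0.74 and -1.11 at 2 h to 1.14 and 0.74 at 6 h. Cebpd, a C/EBP factor gene induced by STAT3, rose by 1.61 ± 0.10, Cebpb by 0.72 ± 0.093 and the glycoprotein gene Lrg1 by 1.48 ± 0.24. Stat3 itself rose by 0.90 ± 0.091 after 0.79 ± 0.091 in the first 2 h, with 2 h values of -0.41 and -0.54 midway between -1.30 and -1.23 in IL-3 and 0.41 and 0.44 at 6 h. Il21r, a cytokine receptor gene, rose by 1.57 ± 0.21 on a dim probe set after an earlier drop. It read -0.37 and -0.25 in IL-3, -1.67 and -0.88 at 2 h and 0.25 and 0.33 at 6 h. The phosphatase gene Ptpn6 (SHP-1) rose by 0.66 ± 0.084. Ptpn2, a phosphatase that acts on JAK kinases, fell by 0.43 ± 0.083. The kinase gene Pim1, a STAT target, read -0.074 and -0.35 at 2 h and 0.016 and -0.0056 at 6 h and did not pass (adjusted p = 0.306), and changed by 1.55 ± 0.12 between 6 h and 24 h. The calls of Cebpd, Cebpb, Stat3 and Ptpn2 were lost with averaged probe sets.

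Genes that respond to IL-3, STAT5 and ERK moved in both directions at this interval. Of 31 tested 5 rose (16.1%) and 5 fell (16.1%), against 9.3% and 6.02% of all genes. The median was -0.084, whereas that over the first 2 h was -0.34. The median for this interval was between -0.16 and 0.17 when 1 array was left out, so its sign is not settled. Cish, the STAT5-induced inhibitor, illustrates the early part: it read 2.0 and 2.08 in IL-3, 0.00047 and -0.23 at 2 h and -0.18 and -0.55 at 6 h, and its difference of -0.25 ± 0.16 from 2 h to 6 h did not pass. The ERK phosphatase gene Dusp6 read 1.33 and 1.41 in IL-3, -1.29 and -1.20 at 2 h and -0.50 and -0.37 at 6 h, and rose by 0.82 ± 0.10 after its drop. Ier3, an early response gene of the same kind, had values of -1.03 and -1.07 at 2 h and 0.081 and -0.092 at 6 h and rose by 1.05 ± 0.11. Other members had held their IL-3 values at 2 h and fell only afterwards. Besides Etv5 these were Ccnd2, cyclin D2, at -1.38 ± 0.10, and Il2ra, the IL-2 receptor alpha chain, at -1.48 ± 0.20. Ccnd2 read 0.44 and 0.49 at 2 h and -0.85 and -0.97 at 6 h, with the 6 h arrays lowest of the 8 in both cultures. Il2ra read -1.11 and -1.84 at 6 h and then 2.79 and 2.69 at 24 h. The ERK pathway inhibitor Spred1 fell by 1.80 ± 0.30, but the mean of its 8 probe sets did not pass (adjusted p = 0.132), and Spred2 fell by 0.87 ± 0.077. Bcl6, a transcriptional repressor gene that STAT5 represses, rose by 1.73 ± 0.23. Averaging the probe sets of a gene ended the calls of Spred2 and Bcl6.

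Immediate early genes, which respond to signals without new protein synthesis, were called in both directions: 3 of 25 rose (12%) and 3 fell (12%), against 9.3% and 6.02% of all genes. With averaged probe sets none fell and 3 rose, and the sign of the list's median, 0.14, depends on the setting. Fos rose by 1.53 ± 0.14 and read -0.56 and -0.73 at 2 h and 1.20 and 0.56 at 6 h. Fosl1, another member of the AP-1 family, fell by 1.04 ± 0.20, and the zinc-finger gene Klf6 fell by 0.70 ± 0.13. Egr1 had a difference of 0.14 ± 0.15 and Junb of 0.47 ± 0.10, neither of which passed. With probe sets averaged, Fosl1 and Klf6 did not pass.

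Part of the MYC network rose. Of 11 tested members 3 rose (27.3%) and none fell, against 9.3% and 6.02% of all genes. After either rescaling of the arrays 2 rose. Myc read 0.69 and 0.85 in IL-3, -1.25 and -1.07 at 2 h, -0.64 and -0.32 at 6 h and 0.32 and 0.54 at 24 h. It was thus lowest at 2 h in both cultures, changed by -1.93 ± 0.085 over the first 2 h and rose by 0.68 ± 0.085 over the next interval (adjusted p = 0.0223), while staying below its IL-3 value. Mxd1, whose protein competes with MYC for their partner MAX, read -0.78 and -0.88 at 2 h and 0.90 and 0.78 at 6 h and rose by 1.67 ± 0.12, or 3.17-fold. Mxi1, a relative of Mxd1, rose by 0.65 ± 0.11, a call that was lost under either rescaling of the arrays. Max itself read 0.24 and -0.19 at 2 h and -0.47 and -0.32 at 6 h, a difference of -0.42 ± 0.24 that did not pass.

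Most ribosome biogenesis genes fell. Ribosomes are assembled in the nucleolus, where RNA polymerase I makes the precursor RNA and many factors process it. Of 64 tested genes 53 fell and none rose, against 6.02% and 9.3% of all genes, and 29 were at least 1 log2 unit lower in each culture. With averaged probe sets 39 fell. The median was -1.02 (-1.12 in the mock and -0.95 in the ASXL1-MT culture), and it was between -1.11 and -0.98 with any 1 array left out. The median over the first 2 h was -0.019 and from 6 h to 24 h 0.066. Ddx21, a nucleolar RNA helicase gene, read 0.71 and 0.71 at 2 h and -1.38 and -1.35 at 6 h and fell by 2.08 ± 0.084, or 4.22-fold. Bysl, needed for the small subunit, fell by 1.98 ± 0.094 from 0.77 and 0.81 to -1.30 and -1.08. Nolc1, a nucleolar phosphoprotein gene, fell by 1.83 ± 0.09 from 0.79 and 0.84 to -1.03 and -1.0. For each of these genes the IL-3 and 2 h arrays formed a high group that did not overlap the 6 h and 24 h arrays. Grwd1, a ribosome assembly factor gene, fell by 1.78 ± 0.15. The polymerase itself was included: the subunits Polr1b, Polr1e and Polr1a fell, with differences of -1.52 ± 0.15, -1.37 ± 0.14 and -0.89 ± 0.16, and Rrn3, its initiation factor, fell by 0.92 ± 0.086. The dyskerin gene Dkc1, of the pseudouridylation complex, fell by 1.47 ± 0.11, and the box C/D core genes Nop58 and Nop56 fell, with differences of -1.27 ± 0.10 and -1.18 ± 0.091. The abundant nucleolar genes Ncl, Npm1 and Fbl had differences of -0.33 ± 0.077, -0.18 ± 0.081 and -0.20 ± 0.079 and did not pass. As the mean of the probe sets of each gene, Polr1a did not pass.

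**Figure D2:**
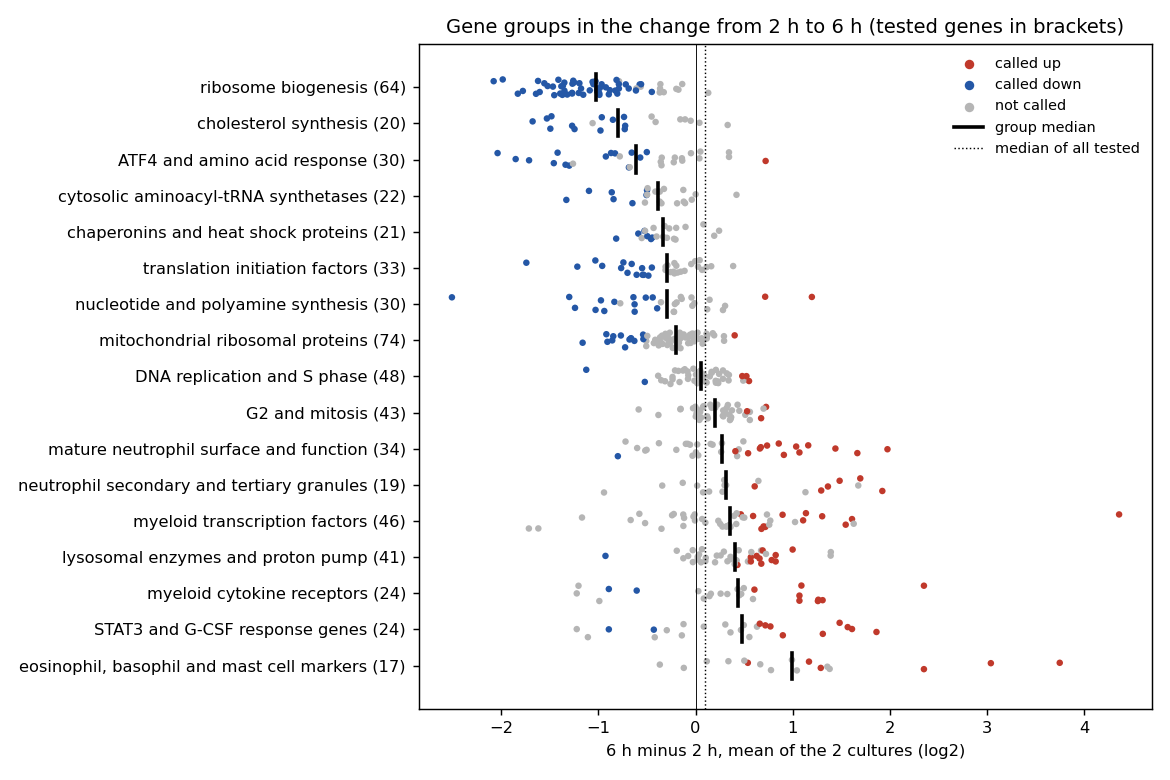
Each point is 1 tested gene, placed by its change from 2 h to 6 h (x axis, log2, mean of the 2 cultures), in 17 gene groups (y axis, number of tested genes in brackets). Thick bars mark group medians and the dotted line the median of all tested genes at 0.097; the ribosome biogenesis median of -1.02 lies farthest to the left.

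MYC and MAX bind the E-box CACGTG, a palindrome that reads the same on both strands, and promoter sequence was examined for it. The windows ran from 250 bases before to 50 bases after each start site in the RefSeq annotation of GRCm38.p6. The E-box was in 18.3% of 786 promoters of 659 fallen genes, 8.04% of 1344 promoters of 999 risen genes, 9.42% of the promoters of tested genes and 7.15% of all 32851 promoters. Within the 150 bases before the start site alone these shares were 9.29%, 4.32%, 5.79% and 4.3%. Among ribosome biogenesis genes 13 of 67 promoters held it (19.4%). A match describes the letters and is not a measured binding site. The promoters shown belong to the 3 called ribosome biogenesis genes with the largest change that hold an E-box before the start site, and capitals mark the E-box.
Nop2: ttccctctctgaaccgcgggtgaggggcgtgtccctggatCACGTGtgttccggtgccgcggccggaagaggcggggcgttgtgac
Utp18: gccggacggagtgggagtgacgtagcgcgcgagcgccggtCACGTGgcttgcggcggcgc
Rrn3: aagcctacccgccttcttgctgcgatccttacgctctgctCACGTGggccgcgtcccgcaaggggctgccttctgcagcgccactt
The stretches are chr6:125131783-125131868 (+ strand), chr11:93885767-93885826 (- strand) and chr16:13780611-13780696 (+ strand), all upstream of the start site. Nop2, an rRNA methyltransferase gene, read 0.50 and 0.49 at 2 h and -1.06 and -0.85 at 6 h and fell by 1.45 ± 0.093. Utp18, a small-subunit processing factor gene, fell by 1.03 ± 0.16. The E-box was not particular to fallen genes: it was in 13 of 39 promoters (33.3%) of the lysosomal genes, called or not. Of 41 tested lysosomal genes 11 rose. Among the called lysosomal genes whose promoters were searched, only Naglu held an E-box before the start site. The share of 33.3% therefore does not describe the risen genes. The Naglu promoter is shown for comparison.
Naglu: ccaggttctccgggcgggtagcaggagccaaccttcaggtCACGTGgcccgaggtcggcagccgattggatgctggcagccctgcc
This stretch, at chr11:101069981-101070066 (+ strand), lies before Naglu, a heparan sulfate-degrading enzyme gene that rose by 0.83 ± 0.10. Utp18 did not pass when the probe sets of a gene were averaged.

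Genes of translation and its precursors fell in part. Of 33 translation initiation factor genes 14 fell and none rose, with a median of -0.29, and 7 fell with averaged probe sets. Eif2b3, a subunit of the exchange factor for eIF2, read 0.91 and 0.78 at 2 h and -0.99 and -0.80 at 6 h and fell by 1.74 ± 0.18, the largest change of the group. The cap-binding protein gene Eif4e fell by 0.96 ± 0.19, and Eif1a, which helps to scan for the start codon, fell by 1.22 ± 0.12. Of 22 cytosolic aminoacyl-tRNA synthetase genes and cofactors 7 fell and none rose, with a median of -0.39. The 2 with the largest change were Eef1e1 and Aimp2, scaffold proteins of the synthetase complex, at -1.33 ± 0.11 and -1.10 ± 0.085. Among the enzymes Farsb fell by 0.86 ± 0.13 and Tars fell by 0.84 ± 0.10. Of 30 nucleotide and polyamine synthesis genes 13 fell and 2 rose, with a median of -0.29. After Srm, described above, the largest falls were in the folate enzyme gene Mthfd2 (-1.30 ± 0.13) and in Ppat, the first enzyme of purine synthesis (-1.24 ± 0.10), although the mean of the 3 probe sets of Ppat did not pass (adjusted p = 0.388). Further purine genes followed, with Pfas at -0.97 ± 0.091, Gart at -0.94 ± 0.087 and Atic at -0.64 ± 0.087. Those that rose were Adssl1 (1.20 ± 0.17), the muscle-type adenylosuccinate synthase, and Sat1 (0.72 ± 0.13), which degrades the polyamines that Srm makes. The ornithine decarboxylase gene Odc1 had a difference of -0.77 ± 0.24 and did not pass. The calls of Eif4e and Sat1 were lost with averaged probe sets.

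Part of the ATF4 group, which supplies amino acids under stress, also fell. Of 30 tested genes 14 fell and 1 rose (11 and none with averaged probe sets), and the median was -0.61. Atf4, the transcription factor itself, read 0.17 and 0.28 at 2 h and -1.18 and -1.30 at 6 h, with both 6 h arrays lowest of the 8, and fell by 1.46 ± 0.12. It rose again by 0.98 ± 0.12 between 6 h and 24 h. The amino acid carriers Slc7a1, Slc1a4, Slc38a2, Slc1a5 and Slc7a5 fell, with differences of -2.04 ± 0.13, -1.85 ± 0.11, -0.87 ± 0.093, -0.83 ± 0.16 and -0.69 ± 0.13. Slc1a4, a carrier of neutral amino acids, read 0.067 and 0.21 at 2 h and -1.91 and -1.52 at 6 h and was back at -0.31 and -0.067 by 24 h. Trib3, a pseudokinase gene that restrains ATF4, fell by 1.71 ± 0.11. The transaminase genes Gpt2 and Got1 fell, with differences of -1.42 ± 0.13 and -0.92 ± 0.091. Other targets did not pass: asparagine synthetase (Asns) read 0.013 and 0.14 at 2 h and -0.018 and 0.081 at 6 h, Phgdh, the first enzyme of serine synthesis, had a difference of -0.14 ± 0.10, and Chac1 one of 0.34 ± 0.11. Ddit4, an inhibitor of mTORC1, was the member that rose (0.72 ± 0.13). Averaging the probe sets of a gene ended the calls of Slc38a2, Slc7a5 and Ddit4.

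ATF4 pairs with C/EBP factors at sites of the form TGATGNAA. On either strand this motif was in 8 of 30 promoters of the ATF4 group (26.7%) and 5 of 16 of the synthetase group (31.2%). It was in 2.8% of promoters of all fallen genes, 2.6% of those of risen genes and 3.97% of all promoters. The group was assembled from known ATF4 targets, so a high share describes the choice of genes. The 2 called members with the largest change and a match before the start site are shown, with the match in capitals.
Nupr1: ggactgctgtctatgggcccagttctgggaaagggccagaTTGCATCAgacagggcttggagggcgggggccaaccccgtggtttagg
Got1: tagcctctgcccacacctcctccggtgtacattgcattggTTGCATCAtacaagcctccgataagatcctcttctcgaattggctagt
They lie at chr7:126625533-126625620 and chr19:43524660-43524747, both on the - strand of GRCm38.p6, upstream of genes that fell, with differences of -1.34 ± 0.21 and -0.92 ± 0.091.

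Most sterol synthesis genes fell. Cells make cholesterol when the transcription factor SREBP2 is active, and these genes are its usual targets. Of 20 tested genes 12 fell and none rose, 6 of them by at least 1 log2 unit in each culture, and the median was -0.79. With averaged probe sets 9 fell. Insig1, which retains the SREBP complex in the endoplasmic reticulum and is itself a target, read 0.47 and 0.47 at 2 h and -1.35 and -1.07 at 6 h and fell by 1.68 ± 0.12. It was lowest at 6 h in both cultures and changed by 0.97 ± 0.12 to 24 h. The enzyme genes Cyp51, Msmo1 and Idi1 fell, with differences of -1.53 ± 0.16, -1.49 ± 0.093 and -1.48 ± 0.11. Cyp51, the sterol 14-demethylase, read 0.60 and 1.11 at 2 h and -0.64 and -0.70 at 6 h. Hmgcs1, which makes the HMG-CoA used by the pathway, fell by 0.98 ± 0.11, and Sqle, squalene epoxidase, fell by 0.73 ± 0.10.

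Smaller falls were seen in protein folding and in the mitochondrial ribosome. Of 21 chaperonin and heat shock genes 6 fell and none rose, with a median of -0.33, led by Hsph1 at -0.82 ± 0.12 and the chaperonin subunit Cct3 at -0.59 ± 0.077. Of 74 mitochondrial ribosomal protein genes 13 fell (17.6%) and 1 rose (1.35%), against 6.02% and 9.3% of all genes, with a median of -0.20. Mrps18b read 0.53 and 0.63 at 2 h and -0.62 and -0.53 at 6 h and fell by 1.16 ± 0.093, and Mrpl12 fell by 0.92 ± 0.081. After each array was centred on its median 17 of these fell, after quantile normalization 19 and as means of probe sets 7. Of the chaperonin and heat shock genes 2 fell as means of probe sets. Ndufaf4, an assembly factor of respiratory complex I that was not in the group, fell by 2.11 ± 0.19. With probe sets averaged, Cct3 did not pass.

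**Figure D3:**
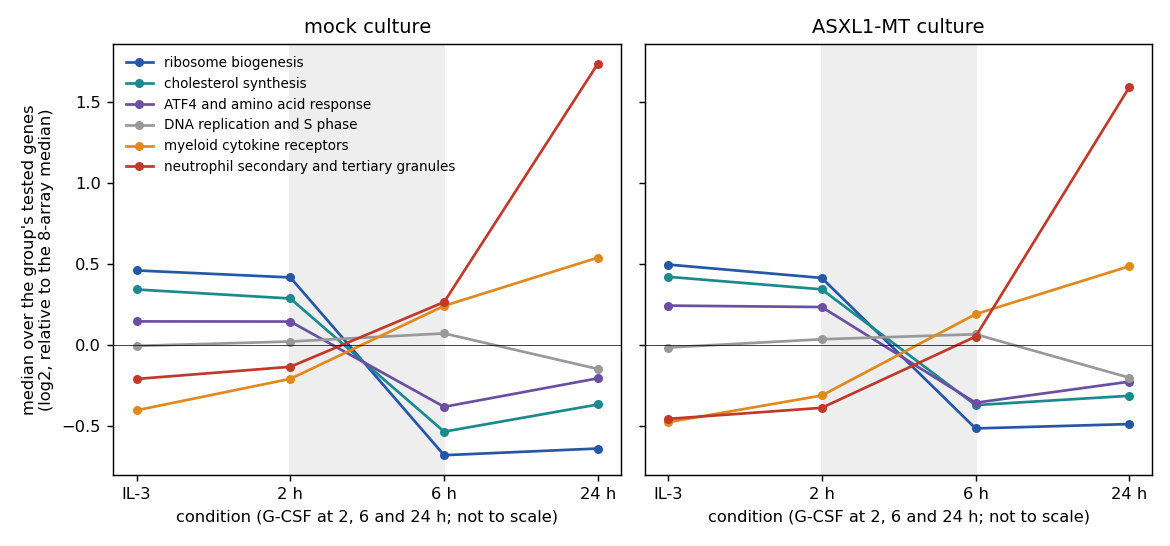
Each point is the median over a group's tested genes on 1 array (y axis, log2 relative to the 8-array median), by condition (x axis, not to scale), for the mock culture on the left and ASXL1-MT on the right. Shading marks 2 h to 6 h; the 3 biosynthetic groups drop there in both cultures, while the median of S phase genes changed by 0.056.

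Some transcription factors of the myeloid lineage rose. Of 46 tested genes 12 rose and none fell, 15 had a difference below 0, and the median was 0.35. When probe sets were averaged, 5 rose. Spi1, which encodes PU.1, read -0.44 and -0.84 at 2 h and 0.50 and 0.44 at 6 h and rose by 1.11 ± 0.12. Both 6 h arrays were above both 2 h arrays. Id2, an inhibitor of helix-loop-helix factors, rose by 1.55 ± 0.21, and Gfi1, a repressor needed for neutrophils, by 0.68 ± 0.10. Runx1, a core regulator of blood progenitors, read -0.089 and 0.019 in IL-3, -0.75 and -0.62 at 2 h and -0.019 and 0.056 at 6 h, and rose by 0.70 ± 0.078 back to its starting value. Irf4 rose by 1.30 ± 0.16, Nfe2 by 0.90 ± 0.15 and Etv6 by 0.59 ± 0.088. Gata1, better known for red cells, eosinophils and mast cells, read -0.30 and 0.035 at 2 h and 0.86 and 1.14 at 6 h and rose by 1.14 ± 0.10. It changed by -1.05 ± 0.10 between 6 h and 24 h, so that both 6 h arrays were the highest of the 8. Cebpa, which commits progenitors to the granulocyte path, read -0.73 and 0.13 at 2 h and -0.13 and -0.51 at 6 h on a dim probe set and did not pass. As the mean of the probe sets of each gene, Runx1, Irf4 and Etv6 did not pass.

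Granule genes of early and late stages rose in part. Primary granule proteins belong to promyelocytes, and 3 of 13 of their genes rose (23.1%) and 1 fell (7.69%), against 9.3% and 6.02% of all genes. All 13 were bright. With the strict filter 4 of 13 rose and 2 fell, against 2015 and 1336 of 7760 genes. With averaged probe sets 2 rose and 2 fell. The median of the primary granule genes was 0.29 at this interval and 0.39 from 6 h to 24 h. Prtn3, proteinase 3, rose by 0.68 ± 0.11 and Ctsg, cathepsin G, by 0.44 ± 0.083, while Mpo, myeloperoxidase, read -0.065 and -0.17 at 2 h and 0.065 and 0.067 at 6 h and Elane, neutrophil elastase, -0.16 and -0.47 at 2 h and 0.39 and 0.13 at 6 h, with differences of 0.18 ± 0.089 and 0.57 ± 0.14 that did not pass. Ctsc, the protease that activates these enzymes, fell by 0.93 ± 0.075. Secondary and tertiary granule proteins come later, and 6 of 19 of their genes rose and none fell, with a median of 0.32 at this interval and 1.53 from 6 h to 24 h. Those that rose were Hp, Anxa1, Lrg1, Lcn2, Pglyrp1 and Ltb4r1, the last a leukotriene receptor gene that the list also held. Anxa1, an anti-inflammatory phospholipid-binding protein gene, read -0.73 and -1.04 at 2 h and 0.89 and 0.73 at 6 h and rose by 1.70 ± 0.13. Its mean over 2 probe sets did not pass (adjusted p = 0.0688). Lcn2, a siderophore-binding lipocalin gene, read -0.50 and -0.56 at 2 h and 1.04 and 0.50 at 6 h and rose by 1.29 ± 0.16, then by 2.60 ± 0.16 to 24 h. Ltf, lactoferrin, a defining protein of secondary granules, read 0.14 and -0.39 at 2 h and -0.14 and -0.36 at 6 h and did not pass, and rose to 2.38 and 1.91 at 24 h on a dim probe set. Of 34 genes of the mature neutrophil surface and function 13 rose and 1 fell. Besides Csf3r, Mxd1 and Pirb these included Cd14 (1.44 ± 0.27), the endotoxin co-receptor, Tlr6 (1.16 ± 0.24), and the oxidase subunits Ncf4 (1.04 ± 0.091) and Ncf1 (0.91 ± 0.11). Fcgr1, a high-affinity IgG receptor gene, fell by 0.80 ± 0.15, and the integrin gene Itgam had a difference of -0.34 ± 0.12 that did not pass. Ctsg, Cd14 and Tlr6 did not pass when the probe sets of a gene were averaged.

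C/EBP factors bind variants of TTNNGCAA, which was searched on both strands. The motif was in 5 of 16 promoters of the secondary and tertiary granule genes (31.2%) and 10.8% of all promoters, but in 9.38% of promoters of risen and 9.29% of fallen genes. The 2 granule genes with the largest change and a match before the start site are shown, with the match in capitals; that of Lcn2 is on the opposite strand.
Anxa1: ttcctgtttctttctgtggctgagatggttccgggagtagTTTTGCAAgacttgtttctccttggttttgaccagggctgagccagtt
Lcn2: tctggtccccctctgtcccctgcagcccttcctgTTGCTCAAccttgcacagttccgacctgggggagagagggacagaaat
These lie at chr19:20390767-20390854 and chr2:32387908-32387989 on the - strand of GRCm38.p6.

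Lysosomal, interferon and NF-kB genes also rose in part. Of 41 genes of lysosomal enzymes and the proton pump 11 rose and 1 fell, with a median of 0.40. Grn, progranulin, read -0.37 and -0.71 at 2 h and 0.54 and 0.37 at 6 h and rose by 1.0 ± 0.10. Lamp2, a lysosomal membrane protein gene, rose by 0.83 ± 0.095, and the pump subunit genes Atp6v0d1, Atp6v1b2 and Atp6v1d by 0.63 ± 0.086, 0.57 ± 0.10 and 0.57 ± 0.11. Of 26 interferon response genes 8 rose and 1 fell; with quantile normalization 5 rose. Parp9, an ADP-ribosyltransferase gene, rose by 1.29 ± 0.15, Isg20, an exonuclease gene, by 1.03 ± 0.14 and Ddx58, the RNA sensor RIG-I, by 0.89 ± 0.10, while the GTPase gene Ifi47 fell by 1.07 ± 0.16. Of 17 NF-kB pathway genes 5 rose and none fell, and 3 rose after centring on array medians, 1 after quantile normalization and none as means of probe sets. Nfkb2, the precursor of p52, rose by 1.19 ± 0.16. In other groups the share that rose in the main setting was closer to the 9.3% of all genes. The shares depend on brightness: with the strict filter 2015 of 7760 genes rose. In that setting 4 of 8 ligand, 6 of 21 adhesion, 9 of 24 glycolysis and hypoxia and 8 of 25 unfolded protein response genes rose. Of 16 chemokine and cytokine ligand genes 2 rose (12.5%), Ccl9 by 1.06 ± 0.13 and Ccl6 by 0.85 ± 0.15. Of 30 adhesion genes 4 rose (13.3%) and 1 fell, among them Itgb7 at 1.25 ± 0.14 and the selectin ligand Selplg at 0.67 ± 0.081. Of 27 glycolysis and hypoxia genes 5 rose (18.5%) and 1 fell: Pfkfb4, a regulator of glycolysis, rose by 1.26 ± 0.20 and hexokinase 2 (Hk2) fell by 0.68 ± 0.12. Of 25 unfolded protein response genes 2 rose (8%), the sensor Ern1 (IRE1) by 1.62 ± 0.18 and Edem1 by 0.53 ± 0.081. The calls of Atp6v1b2, Nfkb2, Ccl6, Hk2, Ern1 and Edem1 were lost with averaged probe sets.

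Few cell cycle genes passed. Of 48 DNA replication and S phase genes 3 rose and 2 fell, with a median of 0.056, and of 43 G2 and mitosis genes 3 rose and none fell, with a median of 0.20. These shares were below those of all genes, but with the strict filter 17 of 43 G2 and mitosis genes rose, against 2015 of 7760 genes. In the main setting 37 of these 43 had a difference above 0. Orc2, a subunit of the origin recognition complex, fell by 1.12 ± 0.11, and cyclin B2 (Ccnb2) rose by 0.73 ± 0.079. Of 28 regulators of the G1 phase 5 rose and 4 fell. Ccnd2 fell, as described above, as did E2f3 (-1.15 ± 0.15), an activator of S phase genes, and the phosphatase gene Cdc25a (-0.67 ± 0.13). The retinoblastoma relatives Rbl2 and Rbl1 rose by 1.08 ± 0.12 and 0.57 ± 0.077, though the mean of the probe sets of Rbl1 had the opposite sign (-0.97), and the CDK4 and CDK6 inhibitor genes Cdkn2c and Cdkn2d by 0.97 ± 0.089 and 0.68 ± 0.079. Cdkn1b, p27, had a difference of 0.38 ± 0.17 that did not pass, after 0.74 ± 0.17 in the first 2 h. Of 27 p53 target genes 6 rose (22.2%) and 1 fell (3.7%), against 9.3% and 6.02% of all genes. With the strict filter 5 of 22 p53 targets rose, against 2015 of 7760 genes, so the higher share was not kept there. Trp53inp1 rose by 1.51 ± 0.23 and Ccng2 by 1.27 ± 0.14, whereas Aen, a nuclease gene, fell by 1.94 ± 0.10. Of 17 BCL2 family genes only Bnip3 rose (0.60 ± 0.12), and it did not pass after either rescaling of the arrays. Averaging the probe sets of a gene ended the calls of E2f3, Cdc25a and Bnip3.

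Asxl1 and its complexes were examined because the vector carries a form of this gene. The representative probe set read -0.20 and -0.53 at 2 h and 0.48 and 0.0058 at 6 h and rose by 0.60 ± 0.093 (adjusted p = 0.03). The mean of its 3 probe sets did not pass (adjusted p = 0.186), and the mean change of the other 2 was 0.032 and 0.22. The representative probe set was not higher in the ASXL1-MT culture: the mean over 4 arrays was lower there by 0.34 on the log2 scale. The same difference was -0.043 and 0.68 for the other 2 probe sets, so the 3 did not point the same way. Whether these probe sets detect the vector's transcript is not given in the sources used here, so they do not check the label. Of 33 Polycomb and ASXL1 complex genes 5 rose (15.2%) and 2 fell (6.06%), against 9.3% and 6.02% of all genes, and 2 rose with averaged probe sets. The Polycomb repressive complex 1 subunits Phc1 and Phc3 rose by 1.15 ± 0.10 and 0.82 ± 0.12, and Pcgf6 fell by 0.82 ± 0.088. Mbd6, a subunit of the deubiquitinase complex of ASXL proteins, rose by 0.86 ± 0.14. Bap1, the enzyme of that complex, Ezh2 and Bmi1 had differences of 0.30 ± 0.11, 0.31 ± 0.11 and -0.27 ± 0.10 and did not pass. With probe sets averaged, Phc3 did not pass.

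Some markers of other lineages rose. Of 17 tested markers of eosinophils, basophils and mast cells, of 29 listed, 6 rose and none fell, with a median of 0.99. The median was between 0.62 and 0.99 with 1 array left out. On the single arrays the median of these markers was -0.53 and -0.16 at 2 h and 0.46 and 0.41 at 6 h, so the groups did not overlap. Prg2 and Prg3, which encode major basic proteins of eosinophil granules, read -1.54 and -2.43 at 2 h and 1.17 and 0.94 at 6 h for Prg2 and -1.41 and -2.86 at 2 h and 1.83 and 1.41 at 6 h for Prg3. The 6 h arrays were above the 2 h arrays for both genes, by 3.04 ± 0.47 and 3.75 ± 0.45, and Prg2 rose to 4.72 and 5.31 at 24 h. Il5ra, the defining receptor of eosinophils, is described above. Cpa3, a mast cell and basophil protease gene, rose by 1.29 ± 0.20 and Mcpt8, a basophil protease gene, by 0.54 ± 0.10. Eosinophil peroxidase (Epx) read -0.54 and -0.16 at 2 h and 0.043 and 0.59 at 6 h and did not pass. Of 10 tested erythroid markers 3 rose, Gata1, Epor and Klf1 (0.64 ± 0.12), and the transferrin receptor gene Tfrc fell by 1.41 ± 0.18. Over all tested genes 9.3% rose and 6.02% fell. Of 14 tested megakaryocyte markers 2 fell, the thrombin receptor F2r (-1.64 ± 0.11) and F2rl2 (-0.79 ± 0.14), though the mean of the 2 probe sets of F2rl2 had the opposite sign (0.71). Among 17 monocyte, macrophage and dendritic cell markers, 13 lymphoid and 12 fibroblast markers limma called none, and 5, 0 and 5 of these groups' tested genes were bright. Of the markers of 32D progenitors, Mpo, Elane, Prtn3, Ctsg and Spi1 were bright, and Kit and Cd34 did not pass the filter on dim genes. As the mean of the probe sets of each gene, Mcpt8 and Klf1 did not pass.

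Most of the genes called between 2 h and 6 h had not moved before, though the count depends on the limit. Of 1994 called genes it was 1705 at 0.5 log2 units, 1302 at 0.3 and 1909 at 1. Of 1210 risen genes 985 were within 0.5 log2 units of IL-3 in both cultures at 2 h, 22 had already risen by more than 0.5 in both and 66 had dropped by more than 0.5 in both. The other 137 met none of these limits in both cultures. Some of them had moved the same way in both, such as Mxd1, at 0.46 and 0.62 over the first 2 h. Of 784 fallen genes the counts were 720, 12 and 7. Among all tested genes 65.4% had not moved, 2.18% had moved the same way and 5.19% the opposite way. For risen genes the last 2 shares were close to these, at 1.82% and 5.45%, and for fallen genes they were 1.53% and 0.89%. The called genes were more often bright (982 risen and 718 fallen) than all tested genes (7760 of 13013), which also bears on the share not moved. The classes share the 2 h arrays with the interval, so a 2 h value that is low by error adds to the opposite class, and the counts are descriptions.

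Some genes ran the same way through both intervals. The nuclear RNA Neat1 read -1.52 and -1.67 in IL-3, -0.71 and -0.62 at 2 h and 0.64 and 0.69 at 6 h, and rose by 1.33 ± 0.11 at the later interval. Malat1, its neighbour on the chromosome, rose by 1.08 ± 0.17, and the means over the probe sets of Neat1 and Malat1 did not pass. Hbp1, a transcriptional repressor gene, rose by 0.98 ± 0.11 after 0.92 ± 0.11, and Ccng2 read -1.73 and -2.0, -0.44 and -0.27 and 0.94 and 0.89 in turn. In the downward direction Bhlhe40, a helix-loop-helix repressor gene, changed by -1.64 ± 0.075 and then fell by 0.39 ± 0.075. Genes that turned back included Myc, Dusp6, Ier3 and Runx1, and also Cd69, an early activation marker of leukocytes, which read 0.73 and 0.46 in IL-3, -0.59 and -1.15 at 2 h and 0.16 and -0.45 at 6 h. In the limma fit the change over the first 2 h did not itself pass for Myc (adjusted p = 0.0635) or Ier3 (adjusted p = 0.227). Hbp1 and Bhlhe40 did not pass when the probe sets of a gene were averaged.

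**Figure D4:**
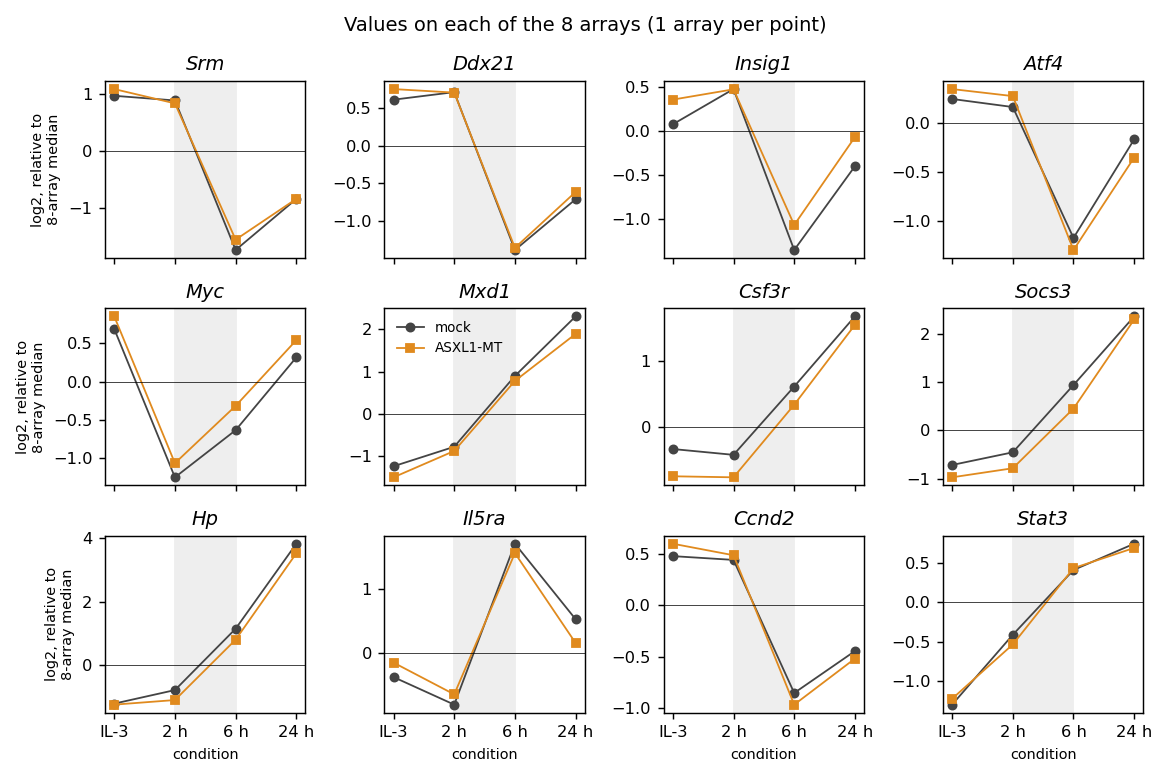
Each panel shows 1 gene on the 8 arrays (y axis, log2 relative to the 8-array median), by condition (x axis, not to scale), with mock as circles and ASXL1-MT as squares. Shading marks 2 h to 6 h; Srm, Ddx21, Insig1, Atf4 and Ccnd2 drop there, Il5ra peaks at 6 h, and Myc is lowest at 2 h.

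The change from 2 h to 6 h was also compared between the cultures through an added term in the fit, with 2 residual degrees of freedom. In limma no gene was called at an adjusted p under 0.05 (0%), 718 had an unadjusted p under 0.05 and the smallest adjusted p was 0.222. Among bright genes the median size of the difference between the cultures was 0.16. The largest differences among bright genes, ASXL1-MT minus mock, were those of Slc1a3 (9.14), Adgb (7.99), Lin7a (6.54), Kcnd3 (6.40) and Prrg3 (6.33), and in the other direction 1700011B04Rik (-6.18), Pde3a (-4.97), Fign (-4.37), H1f4 (-4.28) and Cdyl (-4.17). Slc1a3, a glutamate transporter gene, read 1.58 and -2.81 at 2 h and -2.45 and 2.30 at 6 h, so the cultures moved in opposite directions. For Kcnd3, a potassium channel gene, which read 0.50 and -1.09 at 2 h and -4.75 and 0.055 at 6 h, the mock array at 6 h was far below the other 7. A gene that misses the threshold here is not shown to change alike in the 2 cultures.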

How the data were processed

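The authors' deposited values were taken as log2 expression, centred on each probe set's median over the 8 arrays (within 5e-07 of 0). Per the labels MAS 5.0 captured the intensities, and RMA, with no version, is named in the submitters' processing notes. Neither centring nor log base is stated; natural logs would make each difference 1.44 times larger. Signal levels were therefore estimated from the rounding step of the 32-bit numbers, a departure from the planned filter (median absolute error 0.627 on 8000 simulated probe sets). Only 76.6% of the simulated probe sets fell on the right side of the median, so bright and dim are estimates. Of 45037 probe sets, 34945 had 1 symbol, 932 several and 9160 none. The highest-level probe set stood for each of 18193 genes. Genes were tested if the second-highest array reached the median level, and were bright at the 70th percentile. limma 3.58.1 (R 4.3.3) was fitted to time and vector, leaving 3 degrees of freedom, and tested on simulated data. Named genes were the 15 largest called rises and falls, up to 4 per list, genes given for their role and, added after seeing the values, bright genes not moved by 2 h. These rules and the 36 lists (1114 genes, 923 tested) were chosen with earlier results of these data known. Promoters come from RefSeq (GRCm38.p6).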

Additional observations from a re-analysis of the deposited data

How the results depend on the processing

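With all 8 arrays 1210 genes were called up and 784 down. Leaving out any 1 array gave 0 to 0 calls each way, as did the 4 arrays of the interval, the 6 arrays without 24 h (smallest adjusted p of 0.0596) and the table with dim genes kept. The strict filter called 2015 up and 1336 down, a variance trend on level 1836 and 1217, and the mean of probe sets 655 and 467. Of the 1994 called genes 1779 were also called with centred arrays, 1683 with quantile normalization, 1805 with the trend and 962 with probe set means. Genes that had already moved the same way by 2 h numbered 34 at a limit of 0.5, 86 at 0.3 and 8 at 1; those that had moved the opposite way numbered 73, 152 and 36. For the difference between the cultures each setting run gave 0 calls in limma (433 to 1136 genes at an unadjusted p under 0.05), among them the 6 arrays and the trend, which were added after seeing the data. It was not run without an array of the interval, since the difference takes all 4, or with those 4 alone, which leave no residual degree of freedom. With probe set means 4 named genes changed sign: A930004D18Rik (0.00017), F2rl2 (0.71), Maf (-0.25) and Rbl1 (-0.97). Among named genes both rescalings ended the calls of Bnip3, Ifngr1, Mxi1 and Sat1, and quantile normalization also those of Asxl1, Bhlhe40, Ccl6, Cd69, Ctsg, Ddit4, Edem1, Fosl1, Lrg1 and Scn1a; the trend ended those of Epor, F2rl2, Fosl1, Klf1, Nfkb2, Pfkfb4, Phc3 and Tlr6. None of these changed direction there. The medians of 7 lists changed sign under some setting; the monocyte and lymphoid markers, p53 targets, immediate early, G1, S phase and IL-3 response lists lay between -0.08 and 0.29 in the main setting. The E-box shares in the shorter window were 9.29% for fallen genes, 4.32% for risen genes and 7.46% for ribosome biogenesis. No lymphoid marker was bright, so that list has no value under the strict filter. No paired analysis was possible by replicate number, because each condition has 1 array; the interval is instead paired by culture, through the vector term of the fit, with all 8 arrays and with the 4 of the interval.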

Other observations

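Genes were also grouped by the letters that open their symbols, after the values had been seen, which gave 163 families of at least 10 tested genes. In 18 families at least 25% of members were called in 1 direction, and no test of this was made. The small nucleolar RNA host genes (Snhg) had 7 of 13 called down and none up, with Snhg3 at -1.47 ± 0.093, Snhg5 at -1.46 ± 0.11 and Snhg4 at -0.95 ± 0.12. Snhg3 read 0.62 and 0.76 at 2 h and -0.95 and -0.62 at 6 h. These genes carry in their introns small nucleolar RNAs that guide the modification of ribosomal RNA. The Timm family of import factors of the mitochondrial inner membrane had 6 of 14 down and none up, led by Timm8a1 (-1.49 ± 0.091), Timm9 (-1.11 ± 0.14) and Timm10 (-1.09 ± 0.11). Of 16 tRNA methyltransferase genes (Trmt) 5 fell and 2 rose. Trmt61a and Trmt6, the subunits of one enzyme, changed by -2.01 ± 0.17 and -1.08 ± 0.13, and Trmt61a read 0.68 and 0.32 at 2 h and -1.32 and -1.71 at 6 h. The calls of Snhg5 and Trmt6 were lost with averaged probe sets.

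Among families that rose, the Tbc group, whose members switch off RAB GTPases of vesicle traffic, had 10 of 25 up and none down. Tbc1d10c was highest at 1.39 ± 0.13, from -0.80 and -0.56 at 2 h to 0.78 and 0.64 at 6 h, followed by Tbc1d2 at 1.21 ± 0.19. The Ift genes, known for transport in cilia, had 6 of 14 up, from 0.63 ± 0.12 for Ift27 to 0.92 ± 0.13 for Ift80. The Parp genes had 4 of 10 up, with Parp14 at 1.32 ± 0.15 and Parp8 at 1.18 ± 0.14 beside Parp9. The subunits Pik3r5 and Pik3r6, which couple phosphoinositide 3-kinase gamma to G protein-coupled receptors, rose by 1.28 ± 0.14 and 1.16 ± 0.12. Pik3r5 read -0.65 and -0.69 at 2 h and 0.85 and 0.39 at 6 h. Averaging the probe sets of a gene ended the call of Parp14.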
